A study of Mus musculus with 70 samples.

Results

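The core genes of the circadian clock were followed through fracture repair in bone: Dbp, Tef, Per1, Per2, Per3, Cry1, Nr1d1, Nr1d2, Arntl and Clock. These 10 genes were taken by symbol from the RPKM tables, which share 45634 gene names between the femur and the ulna, and all 10 were found in both bones and passed the filter on low values. The list was chosen on the contrasts of injured with intact limbs, that is, with the values given here in view, so the differences given here describe these genes and are not a test of them. RNA was sequenced from pulverised bone of 12-week-old female C57BL/6 mice. One injury was a full fracture of the femur, for which a 7 mm section around the break was taken and the marrow was spun out. The other was a stress fracture of the ulna, for which a 5 mm section was taken; the protocol mentions no removal of marrow for this bone.

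Fractured femurs were collected 4 h, 1, 3, 7 and 14 days after injury, with 5 libraries at each time, and were set against 10 intact femurs. Stress-fractured ulnas were collected at 4 h (5 libraries), 1 day (4), 3 days (5), 5 days (5) and 7 days (4), and were set against 9 intact ulnas. The intact limbs were the left limbs of injured mice, and the sample titles number the animals, but the table columns do not. By those titles each intact group pools mice of every time after injury, from 4 h to 14 days in the femur and to 7 days in the ulna. The columns do not say which intact library belongs to which time. The labels call the injured tissue periosteum, or callus at 7 and 14 days in the femur, and the intact tissue bone, while the protocol describes the same dissection for both. An intact limb shares the systemic state of an injured animal and is not a limb of an untouched mouse. The labels give no hour of the day for injury or for collection, so a difference between groups in that hour and an effect of the injury cannot be told apart in any comparison of intact and injured limbs or of time points. Each library holds the RNA of a whole bone segment, so fewer cells of a type and less RNA per cell cannot be told apart either.

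In almost every mammalian cell the proteins of Clock and Arntl (also called Bmal1) pair and switch on genes that carry an E-box, among them the Per and Cry genes, whose proteins return to the nucleus and block the pair. Nr1d1 and Nr1d2 (REV-ERB alpha and beta) close a second loop by repressing Arntl through sites called ROREs. Dbp and Tef are bZIP factors driven by E-boxes that carry the rhythm to output genes through D-boxes. Levels of Arntl and of Dbp therefore peak at opposite times of the day in tissues with a running clock, and such a clock has been described in cartilage and in bone cells. Per1 is also switched on directly by glucocorticoids and by signals that act through CREB.

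The promoters were read from RefSeq (GRCm38.p6) for 9 of the 10 genes, in 14 windows of 250 bases before a start site. Per2 had no entry. Both strands were searched for the E-box CACGTG, the D-box TTATGTAA, the cyclic AMP response element TGACGTCA and, for the RORE, TNGGTCA. None of these overlaps another in the windows that matched. TNGGTCA takes any base at N and is a loose form of the RORE. A match to it need not be a site of that kind. An E-box lay in 6.04% of 32536 promoter windows of the same length and a D-box in 0.811%. TNGGTCA lay in 9.23% and a cyclic AMP response element in 1.56%. E-boxes were found in windows of Tef, Per1 and Cry1, which are shown here with the bases around them because the pair of Clock and Arntl acts at sites of this kind. Capitals mark the E-box, which begins 127, 166 and 60 bases before the start site in Tef, Per1 and Cry1, in that order.
Tef, chr15:81802534-81802563, plus strand: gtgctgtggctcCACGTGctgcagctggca
Per1, chr11:69098771-69098800, plus strand: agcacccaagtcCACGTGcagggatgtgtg
Cry1, chr10:85185097-85185126, minus strand: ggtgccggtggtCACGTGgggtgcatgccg

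Whole windows are shown for Per3 and Arntl, which hold several matches each. The Per3 window holds the D-box at 205 and again at 158 bases before the start site. At 118 it holds TGACCAA, a match to TNGGTCA on the other strand. The Arntl window holds 2 matches to TNGGTCA, with TTGGTCA at 200 and TCGGTCA at 181 bases before the start site. Whether Nr1d1 or Nr1d2 acts at either was not tested. Capitals mark the D-boxes and the matches to TNGGTCA. A second Tef window held an E-box and a match to TNGGTCA, and a second Arntl window overlapped the first. The windows of Dbp, Nr1d1, Nr1d2 and Clock and the second window of Per1 held none of the letters searched for.
Per3, chr4:151044666-151044915, minus strand: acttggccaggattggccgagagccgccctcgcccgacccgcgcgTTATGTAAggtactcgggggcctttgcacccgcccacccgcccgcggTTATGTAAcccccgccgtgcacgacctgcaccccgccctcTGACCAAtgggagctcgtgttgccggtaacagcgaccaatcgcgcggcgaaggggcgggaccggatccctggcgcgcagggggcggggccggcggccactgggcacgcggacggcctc
Arntl, chr7:113207215-113207464, plus strand: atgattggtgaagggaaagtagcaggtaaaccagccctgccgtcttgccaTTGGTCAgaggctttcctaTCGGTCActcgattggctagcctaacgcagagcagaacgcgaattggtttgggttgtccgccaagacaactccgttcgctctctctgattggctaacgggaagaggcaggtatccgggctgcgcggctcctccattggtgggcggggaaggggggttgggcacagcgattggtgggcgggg

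The libraries held 8117230 to 30794563 assigned reads (median 16443187). The member with the fewest reads in any library was Dbp, with about 48.2. Values are given as scaled RPKM, the deposited RPKM (reads normalised to exon length and library depth) after a further scaling between libraries, so that levels can be compared between genes per length. The defining genes of bone were abundant. Sost, made by osteocytes, averaged 155 ± 22.9 scaled RPKM in intact ulnas (SD, n = 9) and 296 ± 60.7 in intact femurs (SD, n = 10), and Col1a1, the main collagen of osteoblasts, 1064 ± 591 in intact ulnas and 4272 ± 1948 in intact femurs. Skeletal muscle RNA was abundant too, with Acta1 at 6188 ± 843 in intact ulnas and 8367 ± 2143 in intact femurs.

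Several libraries stood apart from their group in these genes. Library 1 of the ulnas at 5 days had 2.69 scaled RPKM of Dbp, against 21.0 in the next lowest, and 16.8 of Arntl, against 4.56 in the next highest. Library 5 of the ulnas at 1 day had 37.4 of Dbp, against 14.5 in the next highest. At 7 days ulna libraries 1 and 2 had 8.88 and 5.71 of Dbp, against 22.4 and 28.3 in libraries 4 and 5. The muscle list of the 5-day library stood at -0.53 log2 units from the intact mean, inside the -1.14 to -0.38 of the other 4. Its adipocyte list stood at 0.26, above their range of -0.65 to -0.17, and its chondrocyte list at 4.14, the lowest of the group. Its erythroid, neutrophil, macrophage, osteoblast and osteocyte lists lay inside the group's range. In 1-day library 5 the muscle list, at 0.12, was the highest of its group. Its osteocyte, osteoblast, chondrocyte and macrophage lists were the lowest, at -0.92, -0.70, -0.38 and 0.22. Its adipocyte, erythroid and neutrophil lists lay inside the range. Among the intact limbs, femur libraries 1 and 2 held 47.3 and 38.0 of Fkbp5, a glucocorticoid-induced gene, against 5.14 to 18.6 in the other 8, and ulna libraries 1 and 2 held 20.6 and 52.3, against 6.57 to 10.4 in the other 7. Several of the differences below are given with and without these libraries.

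After a full fracture, 8 of the 10 genes differed from intact femurs at 4 h, a time at which 28.3% of all genes were called higher and 28.5% lower. Per1 and Cry1 rose, and Dbp, Per3, Nr1d1, Tef, Nr1d2 and Clock fell. At 1 day Arntl, Nr1d1 and Per3 were lower and none was higher. From 3 to 14 days Dbp, Tef, Per1, Per3 and Nr1d1 were lower at every time, while Clock was higher at each of these times. In the stress-fractured ulna Dbp and Per3 fell and Cry1 rose at 4 h, and Clock was higher from 1 day on.

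A gene is said here to rise, fall or be called where a limma fit of log2(scaled RPKM + 0.1) across all genes of the bone (19944 in femur, 20506 in ulna) gave a Benjamini-Hochberg adjusted p below 0.05; differences on this scale understate the change of genes with low values. At femur 4 h, 2 members were called higher and 6 lower, where 28.3% of all genes were called higher and 28.5% lower. Groups that do not overlap were seen for Per1 and Cry1 above the intact femurs and Per3 below them, against 13.0% and 9.04% of all genes. At femur 1 day, 0 were called higher and 3 lower (26.7% and 24.8% of all genes). At 3 days the counts were 1 and 7 (28.8% and 28.0%), at 7 days 1 and 6 (32.5% and 33.6%), and at 14 days 2 and 7 (28.9% and 27.0%). Without overlap, Tef and Nr1d1 lay below the intact range at 3 days and 0 members above it, where 14.2% of all genes lay below and 18.6% above. At 7 days Nr1d1 lay below and Clock above (17.1% and 22.8%), and at 14 days Nr1d1 lay below and 0 members above (13.6% and 17.9%). The members' median difference was -0.45 at 4 h, -0.24 at 1 day, -0.62 at 3 days, -0.88 at 7 days and -0.92 at 14 days, where the median of all genes lay between -0.08 and -0.03.

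In the ulna, 1 member was called higher and 2 lower at 4 h, where 5.51% of all genes were called higher and 5.19% lower. Dbp and Per3 lay below the whole intact range and 0 members above it, against 1.85% and 2.03% of all genes. At 1 day the counts were 1 and 0 (8.83% and 3.98%), at 3 days 1 and 2 (20.2% and 17.6%), at 5 days 1 and 2 (22.3% and 20.9%), and at 7 days 1 and 1 (18.5% and 16.0%). Clock lay above the intact range at 1, 3 and 5 days, times at which 5.22%, 11.3% and 13.2% of all genes did. Cry1 lay below it at 3 days, and 0 members did at 1 or 5 days, where 1.49% (1 day), 5.76% (3 days) and 8.50% (5 days) of all genes lay below. The members' median difference was -0.12, -0.36, -0.22, -0.38 and -0.42 over the 5 times, with all genes between -0.03 and 0.00. Since the list was drawn up from these contrasts, nothing is read from the members' counts against those of all genes. The 3 calls at 4 h lay near the threshold, at limma adjusted p of 0.0448 (Dbp), 0.0292 (Per3) and 0.0357 (Cry1). With single libraries left out their differences stayed at -1.45 to -1.13, -1.15 to -0.99 and 0.24 to 0.33. The 4 h count changed nonetheless: it was 0 without stress-fractured library 1 or 2 or intact library 8, and 1 without stress-fractured library 3 or intact library 4, 5, 7 or 9. At 1 day it was 0 without library 2 or 5, and at 7 days it was 1 without library 1 or 2 and 4 without library 4.

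The scaling between libraries shifts all genes together. With the chosen scaling 49.2 to 51.9% of the genes called in the femur contrasts were higher, with RPKM as deposited 35.6 to 58.3%, and with upper-quartile scaling 31.1 to 41.5%. In the ulna these shares were 51.5 to 68.9%, 30.7 to 64.0% and 43.9 to 75.4%. Upper-quartile scaling moved the median of all genes in the femur to between -0.25 and -0.14, and deposited RPKM moved it to between -0.28 and 0.04. The direction of each called difference of a member against intact limbs was the same under all 3 scalings.

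**Figure D1:**
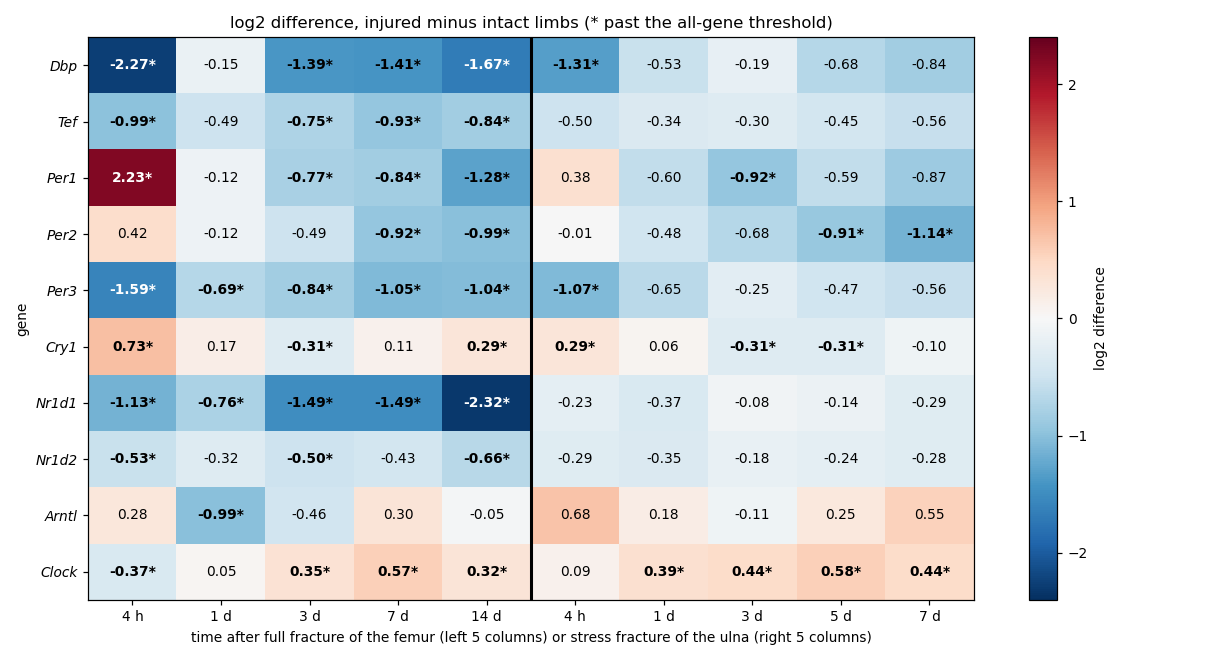
Mean log2 difference of injured minus intact limbs for each clock gene (rows) at each time after a full fracture of the femur (left 5 columns) or a stress fracture of the ulna (right 5 columns); blue is lower and red is higher in injured limbs, and an asterisk marks an adjusted p below 0.05 over all genes. The Nr1d1 row is blue throughout the femur, down to -2.32 at 14 days, and the Clock row is red from 3 days in the femur and from 1 day in the ulna.

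Dbp (chr7:45705088-45710203, plus strand, mm10), an output factor with a wide daily swing in many tissues, had the deepest fall of the members at 4 h in the femur. The fractured femurs held 1.26, 1.54, 1.401, 3.90 and 1.87 scaled RPKM, against 3.21 to 33.5 (median 8.17) in intact femurs. Expressed as a log2 difference, Dbp fell by 2.27 ± 0.36 (SE). Library 4 of the fractured femurs was the highest of its group and reached into the intact range. At 1 day the values were 6.77, 8.88, 9.75, 6.80 and 9.44, all inside the intact range, and the difference was -0.15 ± 0.36. Dbp was lower again at the 3 later times. It read 2.85, 4.95, 3.54, 2.96 and 3.19 at 3 days, 1.51, 5.10, 4.54, 2.43 and 5.17 at 7 days and 2.36, 3.70, 3.33, 2.42 and 2.49 at 14 days, called differences of -1.39 ± 0.36, -1.41 ± 0.36 and -1.67 ± 0.36. The intact femurs themselves were widely spread: libraries 3 and 4 held 33.5 and 25.1, and the other 8 held 3.21 to 10.1. In order of the group means, Dbp ran from 4 h (1.99) through 14 days (2.86), 3 days (3.50), 7 days (3.75) and 1 day (8.33) to intact femurs (11.6), and among neighbours in that order the 7-day and 1-day groups alone did not overlap.

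In the ulna Dbp read 12.8, 6.74, 5.67, 11.9 and 14.1 at 4 h, against 14.7 to 37.4 (median 24.3) in intact ulnas, with no overlap. This was a called difference of -1.31 ± 0.43, which was no longer called when any of 7 of the 9 intact libraries or of 4 of the 5 injured ones was left out, or when the variance was modelled without a trend, or without the filter on low values. At 1 day the values were 11.9, 14.5, 11.8 and 37.4 in libraries 1, 2, 4 and 5, the last of them as high as the highest intact ulna. At 3 days they were 23.02, 24.2, 12.4, 29.4 and 20.7, and the groups overlapped. At 5 days they were 2.69, 23.2, 21.02, 21.8 and 25.99 and at 7 days 8.88, 5.71, 22.4 and 28.3, with the low libraries named above beside others at the intact level. The differences from 1 to 7 days were -0.53 ± 0.46, -0.19 ± 0.43, -0.68 ± 0.43 and -0.84 ± 0.46, and 0 of the 4 passed the threshold. Without the library that stood apart, the 1-day difference of Dbp was -0.92 (library 5 left out) and the 5-day difference -0.07 (library 1 left out). The 7-day difference was -0.43 without library 2 and -1.20 without library 5. None of these was called. Ordered by mean, neighbouring ulna groups overlapped at every step.

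Tef (chr15:81802421-81826863, plus strand), a close relative of Dbp, fell with it after the full fracture and by less. It read 3.99, 9.44, 6.49, 15.5 and 13.1 at 4 h, against 11.2 to 30.8 (median 16.6) in intact femurs, a called difference of -0.99 ± 0.24. At 1 day it read 9.30, 10.8, 14.9, 12.4 and 15.2, a difference of -0.49 ± 0.24 that was not called. The later groups were low, and that of 3 days was tight. They read 10.1, 10.1, 10.5, 10.3 and 10.4 at 3 days, 5.94, 11.8, 10.8, 6.89 and 11.7 at 7 days and 9.34, 11.3, 9.08, 9.09 and 9.60 at 14 days, called differences of -0.75 ± 0.24, -0.93 ± 0.24 and -0.84 ± 0.24. The lowest intact femur, at 11.2, lay above all 5 libraries of 3 days. In the ulna Tef read 24.8, 23.2, 18.9, 31.5 and 26.01 at 4 h, against 27.8 to 44.7 (median 37.2) in intact ulnas, and its differences from 4 h to 7 days ran from -0.56 ± 0.25 to -0.30 ± 0.23, with 0 of 5 called. Its lowest ulna values were those of library 1 at 5 days (11.01) and libraries 1 and 2 at 7 days (16.4 and 16.1), which were also low in Dbp. Without 5-day library 1 the difference of Tef at 5 days was -0.15, against -0.45 with it, and without 1-day library 5 that at 1 day was -0.54, against -0.34 with it. Without 7-day library 4 the difference at 7 days was -0.78 and was called.

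**Figure D2:**
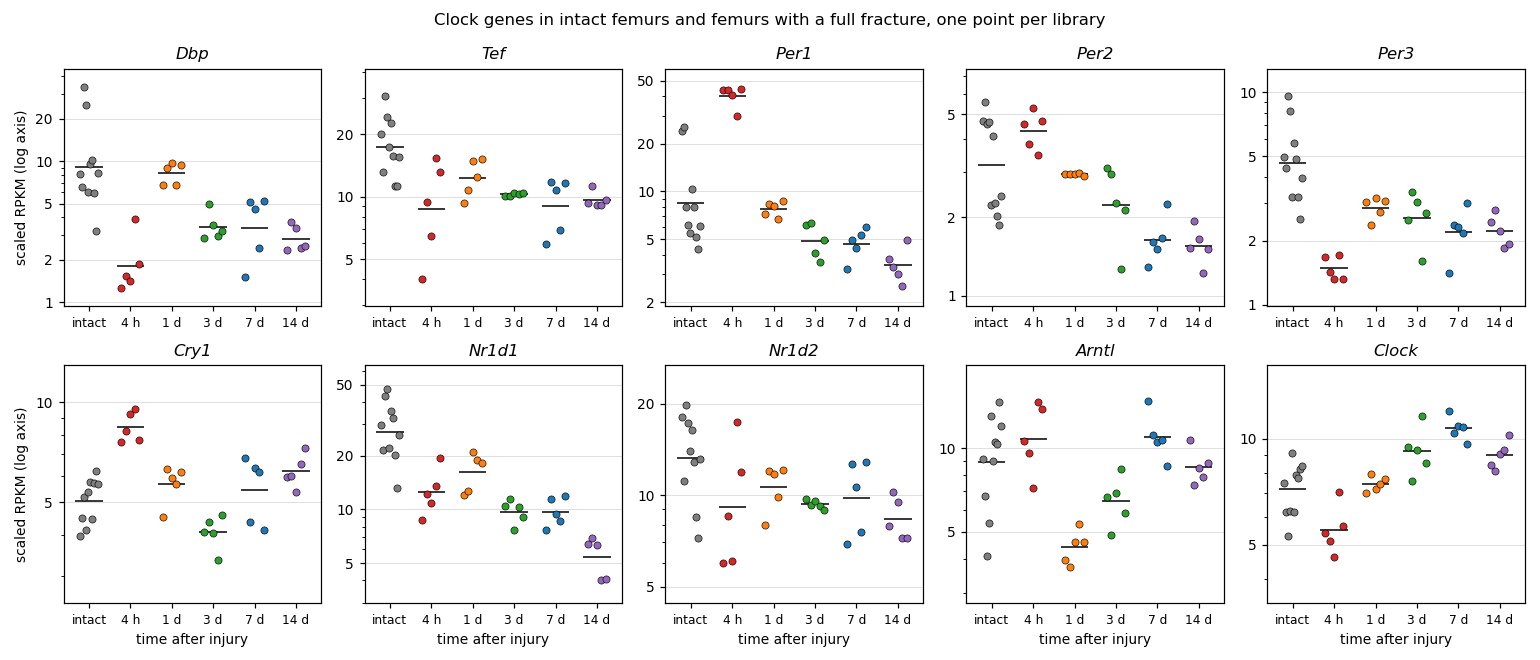
Scaled RPKM (log axis) of each clock gene in intact femurs (10 libraries) and in fractured femurs at 4 h, 1, 3, 7 and 14 days (5 libraries each); each point is a library and each line is the geometric mean of a group. Per1 at 4 h (30.02 to 44.1) lies above every other femur library, and Nr1d1 at 14 days (4.03 to 6.88) lies below every other.

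Per1 (chr11:69095217-69109960, plus strand), an early-responding gene of the inhibitory arm, gave the largest rise of the list. At 4 h the fractured femurs held 43.4, 43.7, 40.6, 30.02 and 44.1 scaled RPKM, against 4.33 to 25.6 (median 7.03) in intact femurs, and the groups did not overlap. Per1 rose by 2.23 ± 0.29 on the log2 scale. The groups overlapped at 1 day, when the values were 7.19, 8.40, 8.08, 6.69 and 8.70 and the difference was -0.12 ± 0.29. Per1 was then lower than in intact femurs. It read 6.17, 6.29, 4.10, 3.61 and 4.95 at 3 days, 3.26, 4.92, 4.41, 5.31 and 5.96 at 7 days and 3.74, 3.35, 3.000, 2.55 and 4.93 at 14 days, called differences of -0.77 ± 0.29, -0.84 ± 0.29 and -1.28 ± 0.29. Intact libraries 1 and 2, with 23.98 and 25.6, stood above the other 8 intact femurs, which held at most 10.4. Leaving out this pair, chosen after seeing the data, lowers the intact mean of itself. Without them the 4 h rise was 2.61 ± 0.18. The 3-day difference was then -0.39 and was no longer called, nor was it called without 3-day library 3 or 4.

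In the ulna Per1 read 18.8, 21.3, 30.2, 28.6 and 16.9 at 4 h, against 8.42 to 30.9 (median 17.3) in intact ulnas, and the difference of 0.38 ± 0.34 was not called. The groups overlapped, since intact library 2 held 30.9, above all 5 stress-fractured ulnas. At 3 days Per1 fell by 0.92 ± 0.34, with values of 7.39, 18.5, 5.86, 9.56 and 8.01. That call was lost without intact library 2, 6 or 7 or injured library 1, 3 or 5. The 1-day values were tight at 10.7, 12.6, 10.3 and 12.2, a difference of -0.60 ± 0.36 that was not called. At 5 days Per1 read 4.80, 18.3, 20.3, 12.2 and 9.04 and at 7 days 6.82, 4.26, 18.6 and 14.6, with differences of -0.59 ± 0.34 and -0.87 ± 0.36 that were not called either. Without 5-day library 1 the 5-day difference was -0.28. At 7 days it was -0.49 without library 2, and it passed the threshold without library 4 (-1.19), library 5 (-1.07) or intact library 5 (-0.99).

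Per2 (chr1:91415982-91459324, minus strand), a core gene of the inhibitory arm, did not share the early rise of Per1 at the threshold. It read 4.57, 3.84, 5.26, 3.47 and 4.69 at 4 h, against 1.87 to 5.55 (median 3.28) in intact femurs, a difference of 0.42 ± 0.22. Without intact libraries 1 and 2 the difference was 0.59 ± 0.20 and was called. That pair was chosen after seeing the data and its removal lowered the intact mean, so nothing is read from this call. At 1 day the values agreed to within 0.07 scaled RPKM, at 2.94, 2.93, 2.95, 2.97 and 2.90, and the difference from intact femurs was -0.12 ± 0.22. Per2 was lower at the last 2 times, with called differences of -0.92 ± 0.22 at 7 days (1.29, 1.60, 1.51, 1.66 and 2.26) and -0.99 ± 0.22 at 14 days (1.53, 1.93, 1.65, 1.23 and 1.51). At 3 days it read 3.11, 2.94, 2.26, 1.27 and 2.14, a difference of -0.49 ± 0.22 that was not called.

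In the ulna Per2 was lower late in the series. Its values were 1.56, 5.89, 10.5, 8.58 and 5.49 at 5 days and 2.36, 1.85, 11.6 and 8.85 at 7 days, against 7.08 to 13.2 (median 10.7) in intact ulnas. The differences of -0.91 ± 0.35 and -1.14 ± 0.38 were called, and the 5-day call was lost without any of 7 of the 14. Without intact library 1, 6, 8 or 10 or 5-day library 2 or 5, the 5-day difference stayed between -0.94 and -0.87. Without 5-day library 1 the 5-day difference was -0.48, and without 7-day library 1 or 2 the 7-day difference was -0.82 or -0.71; none of these was called. At 4 h Per2 read 11.3, 9.84, 9.31, 10.8 and 9.85, within the intact range in every library. It read 6.89, 6.87, 6.65 and 9.28 at 1 day and 5.55, 10.02, 3.66, 6.61 and 7.93 at 3 days, with differences of -0.48 ± 0.38 and -0.68 ± 0.35 that were not called.

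Per3 (chr4:151003652-151044665, minus strand), a Per gene with 2 D-boxes in its promoter window, moved opposite to Per1 at 4 h. The fractured femurs held 1.69, 1.42, 1.33, 1.71 and 1.33, against 2.53 to 9.59 (median 4.65) in intact femurs, with no overlap and a called difference of -1.59 ± 0.22. Per3 was lower at all 5 femur times. The values were 3.06, 2.37, 3.20, 2.73 and 3.07 at 1 day, 2.50, 3.40, 3.04, 1.61 and 2.70 at 3 days, 1.41, 2.38, 2.32, 2.18 and 3.02 at 7 days and 2.46, 2.78, 2.23, 1.85 and 1.93 at 14 days. These were called differences of -0.69 ± 0.22, -0.84 ± 0.22, -1.05 ± 0.22 and -1.04 ± 0.22, so Per3 was lowest at 4 h. In the ulna it read 7.17, 5.93, 5.71, 8.26 and 8.94 at 4 h, against 9.82 to 20.4 (median 15.8) in intact ulnas, again with no overlap and a called difference of -1.07 ± 0.32. That call was lost without injured library 1, 2 or 3 or intact library 8, at differences of -1.07 to -0.99. From 1 to 7 days the ulna groups overlapped the intact ulnas, and 0 of the 4 differences were called (-0.65 ± 0.35, -0.25 ± 0.32, -0.47 ± 0.32 and -0.56 ± 0.35). The 3-day difference of Per3 was -0.08 without 3-day library 3, and the 5-day difference was -0.03 without 5-day library 1. The 7-day difference ran from -0.85 without library 4 to -0.26 without library 2.

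Cry1 (chr10:85131700-85185064, minus strand), which encodes the cryptochrome partner of the Per proteins, varied over a narrow range and rose early. At 4 h it read 7.58, 8.18, 9.21, 9.58 and 7.73 in fractured femurs, against 3.97 to 6.19 (median 5.29) in intact femurs, a rise of 0.73 ± 0.11 with no overlap. At 1 day it read 4.52, 6.29, 5.93, 5.70 and 6.16 and no longer differed at the threshold (0.17 ± 0.11). It was lower at 3 days (4.06, 4.36, 4.05, 3.36 and 4.57), by a difference of -0.31 ± 0.11, was not called at 7 days (0.11 ± 0.11) and was higher at 14 days (5.98, 6.02, 5.38, 6.51 and 7.28) by 0.29 ± 0.11. The 3-day and 14-day calls were both lost with RPKM as deposited, and the 14-day call also with upper-quartile scaling or without intact library 1 or 4 or 14-day library 4 or 5. Without 3-day library 4 the 3-day call was lost too. In the ulna Cry1 was likewise higher at 4 h and lower at 3 days. It rose by 0.29 ± 0.09 at 4 h, with 7.94, 7.54, 6.12, 6.65 and 6.43 against 4.89 to 6.42 (median 5.55) in intact ulnas, a call that was lost under both other scalings and without stress-fractured library 1 or 2 or any of 5 intact ones. At 3 days it read 4.31, 4.70, 4.56, 4.57 and 4.53, below every intact ulna, and fell by 0.31 ± 0.09. At 5 days 4 libraries read 4.06 to 4.39 and library 1 read 6.203, and the called difference was -0.31 ± 0.09. At 1 and 7 days the differences of 0.06 ± 0.10 and -0.10 ± 0.10 were not called.

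Nr1d1 (chr11:98767932-98775333, minus strand), the repressor REV-ERB alpha, was lower than in intact femurs at all 5 times and had the deepest fall of the list at 14 days. Its last exon overlaps Thra on the opposite strand, and no source used here says whether reads were counted by strand, so reads from the overlap are uncertain. At 4 h it read 8.67, 12.2, 10.8, 13.5 and 19.3 in fractured femurs, against 13.1 to 47.6 (median 27.9) in intact femurs, a called difference of -1.13 ± 0.22. Only intact library 9, at 13.1, and the 2 highest fractured libraries made these groups overlap. At 1 day it read 11.98, 12.6, 20.9, 18.8 and 18.3, a called difference of -0.76 ± 0.22. From 3 days on every fractured femur lay below every intact one. It read 10.5, 11.4, 7.64, 10.3 and 8.998 at 3 days, 7.68, 11.5, 9.45, 8.61 and 11.8 at 7 days and 6.40, 6.88, 6.29, 4.03 and 4.05 at 14 days, called differences of -1.49 ± 0.22, -1.49 ± 0.22 and -2.32 ± 0.22. The 14-day group was the lowest and did not overlap its neighbour in the order of means. In the ulna none of the 5 differences of Nr1d1 was called, and they ran from -0.37 ± 0.24 at 1 day to -0.08 ± 0.22 at 3 days. Without 1-day library 5 the 1-day difference was -0.58, and without 1-day library 1 it was -0.18. Its ulna values spanned 22.6 to 31.3 at 4 h, 15.5 to 35.7 at 1 day, 19.8 to 42.3 at 3 days, 16.3 to 36.2 at 5 days and 21.1 to 33.6 at 7 days, against 17.5 to 45.4 (median 31.4) in intact ulnas.

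Nr1d2 (chr14:18204054-18239127, minus strand), the paralogue REV-ERB beta, moved less. In fractured femurs it read 5.96, 8.55, 6.07, 17.4 and 11.9 at 4 h, against 7.24 to 19.9 (median 13.6) in intact femurs, and its differences of -0.53 ± 0.22 at 4 h, -0.50 ± 0.22 at 3 days and -0.66 ± 0.22 at 14 days were called. The 4 h call was lost when any of 7 single libraries was left out and the 3-day call when any of 12 was, so the 14-day fall was the call that single libraries did not decide. The 14-day values were 7.90, 10.2, 9.48, 7.26 and 7.21. Neither the 1-day nor the 7-day difference was called (-0.32 ± 0.22 and -0.43 ± 0.22). In the ulna its differences ran from -0.35 ± 0.22 to -0.18 ± 0.20, and 0 of 5 were called. Library 5 at 1 day (27.4, against 15.6 in the next highest) and library 1 at 5 days (8.68, against 20.4 in the next lowest) set its range there. Without them the differences of Nr1d2 were -0.59 at 1 day and 0.02 at 5 days, and 7-day differences ran from -0.47 to -0.12 when single libraries were left out.

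Arntl (chr7:113207465-113314126, plus strand), the partner of Clock and the target of the Nr1d repressors, was lower at 1 time point of the femur. At 1 day the fractured femurs held 3.95, 3.74, 4.61, 5.35 and 4.58, against 4.08 to 14.6 (median 9.74) in intact femurs, a called difference of -0.99 ± 0.21. The 4 h libraries overlapped the intact ones (10.6, 9.58, 7.17, 14.6 and 13.9), with a difference of 0.28 ± 0.21 that was not called. Arntl thus had its lowest group mean (4.45) at 1 day, when Dbp had its highest among the fractured femurs (8.33), and a mean of 11.2 at 4 h, when Dbp had its lowest (1.99). It read 6.67, 4.88, 6.91, 8.38 and 5.85 at 3 days, 14.7, 11.1, 10.5, 10.7 and 8.65 at 7 days and 10.7, 7.36, 8.46, 7.89 and 8.83 at 14 days, with differences of -0.46 ± 0.21, 0.30 ± 0.21 and -0.05 ± 0.21 that were not called. In the ulna it read 4.67, 7.66, 9.13, 8.09 and 6.26 at 4 h, against 2.97 to 8.17 (median 4.33) in intact ulnas, a difference of 0.68 ± 0.33 that was not called. The values were 5.26, 7.55, 4.23 and 3.52 at 1 day, 4.57, 2.70, 5.18, 5.64 and 2.85 at 3 days, 16.8, 3.47, 3.64, 3.71 and 4.56 at 5 days and 11.1, 11.3, 3.59 and 3.65 at 7 days. The high ones (16.8, 11.1 and 11.3) belong to 5-day library 1 and 7-day libraries 1 and 2, which were low in Dbp. The ulna differences of Arntl were 0.25 ± 0.33 at 5 days and 0.55 ± 0.36 at 7 days, neither called; without 5-day library 1 the first was -0.18, and without 7-day library 1 or 2 the second was 0.29 or 0.28.

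**Figure D3:**
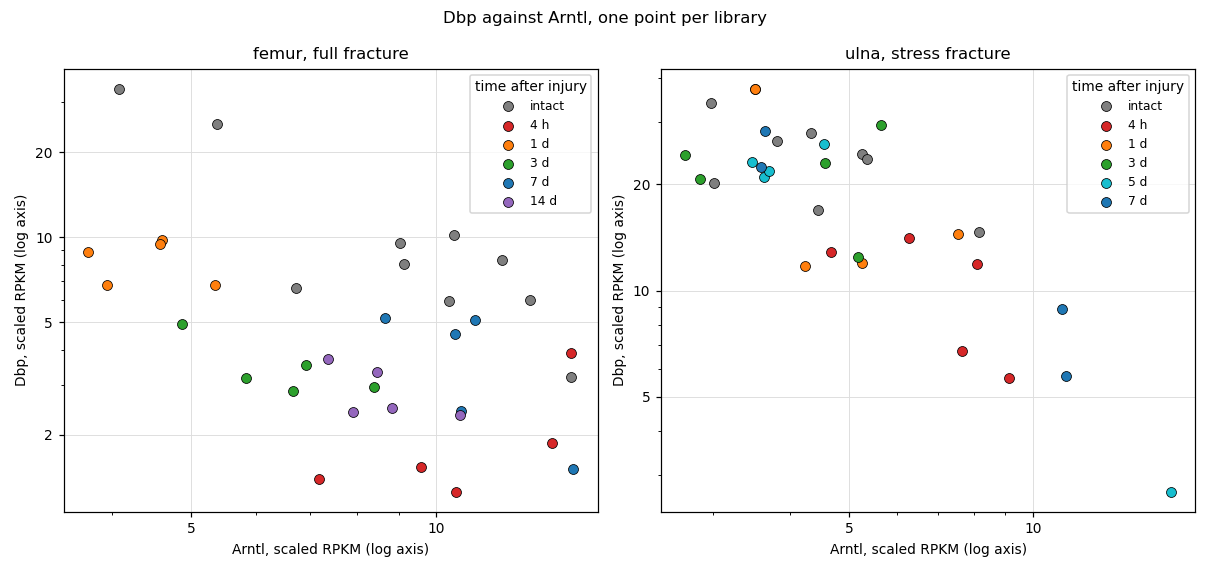
Dbp (vertical, scaled RPKM, log axis) against Arntl (horizontal, scaled RPKM, log axis) in each femur library (left) and each ulna library (right), coloured by time after injury. In the ulna the libraries with the most Arntl (16.8, 11.3 and 11.1) are among the lowest in Dbp (2.69, 5.71 and 8.88), and in the femur the 4 h libraries lie at 7.17 to 14.6 of Arntl and 1.26 to 3.90 of Dbp.

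Clock (chr5:76209868-76304792, minus strand), the partner of Arntl that swings little in most tissues, was the member that was higher late in both bones. At 4 h it was lower in fractured femurs, with 5.41, 5.13, 4.62, 7.05 and 5.65 against 5.30 to 9.12 (median 7.63) in intact femurs, a called difference of -0.37 ± 0.10, and at 1 day the difference was 0.05 ± 0.10. It was higher at 3 days (9.46, 7.57, 9.31, 11.6 and 8.50), 7 days (11.9, 10.4, 10.9, 10.8 and 9.65) and 14 days (8.40, 8.12, 9.03, 9.28 and 10.2), by 0.35 ± 0.10, 0.57 ± 0.10 and 0.32 ± 0.10. At 7 days the lowest fractured femur (9.65) stood above the highest intact one (9.12). The 14-day call was lost with upper-quartile scaling, at 0.20. In the ulna Clock read 6.42, 8.55, 6.82 and 7.65 at 1 day, 7.49, 7.09, 8.79, 7.42 and 7.30 at 3 days and 11.4, 8.32, 7.13, 7.82 and 7.67 at 5 days, against 4.82 to 6.33 (median 5.59) in intact ulnas, with no overlap at any of these times. The rises were 0.39 ± 0.11, 0.44 ± 0.10 and 0.58 ± 0.10. The 1-day call was lost without 1-day library 2 (0.32) or library 5 (0.37). At 7 days it read 8.92, 9.61, 5.89 and 6.54, a rise of 0.44 ± 0.11, and library 4 lay inside the intact range. The 4 h values of 5.98, 6.53, 5.98, 5.97 and 5.30 lay near the intact ones (0.09 ± 0.10).

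**Figure D4:**
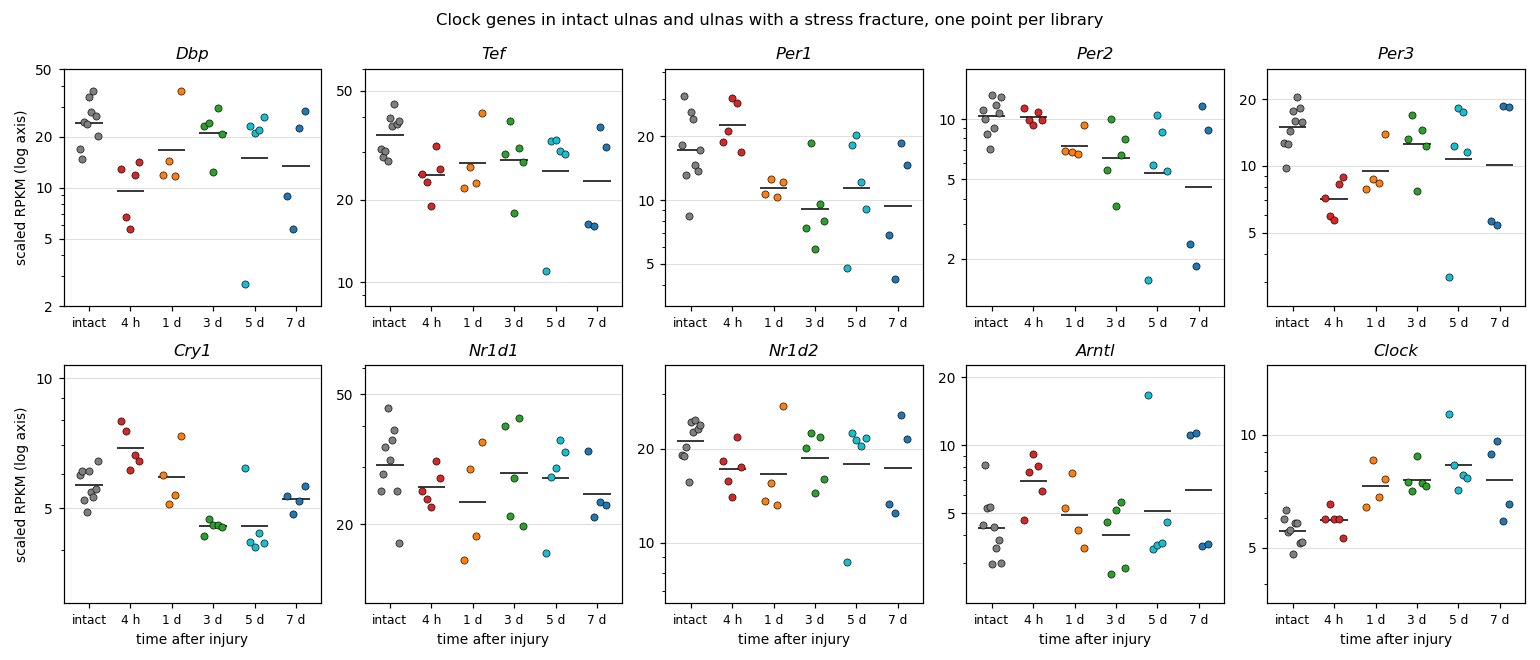
Scaled RPKM (log axis) of each clock gene in intact ulnas (9 libraries) and in stress-fractured ulnas at 4 h (5), 1 day (4), 3 days (5), 5 days (5) and 7 days (4); each point is a library and each line is the geometric mean of a group. A single 5-day library lies far below the others in Dbp (2.69) and above them in Arntl (16.8), and the 7-day libraries fall into a low and a high pair in Dbp, Per1, Per2 and Per3.

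Neighbouring times were compared within the injured limbs, without the intact ones. Between 4 h and 1 day after a full fracture 6 of 10 members were called (39.8% of all genes). The 1-day femurs were higher than the 4 h femurs in Dbp by 2.11 ± 0.42, in Per3 by 0.91 ± 0.25 and in Clock by 0.43 ± 0.12. They were lower in Per1, Arntl and Cry1, with differences of -2.35 ± 0.33, -1.27 ± 0.24 and -0.56 ± 0.13. Between 1 and 3 days Dbp, Nr1d1 and Cry1 fell, with differences of -1.24 ± 0.42, -0.73 ± 0.26 and -0.47 ± 0.13 (3 of 10, with 32.1% of all genes); the call of Nr1d1 was lost without 1-day library 3, 4 or 5 or 3-day library 3. Arntl rose by 0.76 ± 0.24 and Cry1 by 0.41 ± 0.13 between 3 and 7 days (2 of 10, with 35.1%), neither of them called with RPKM as deposited, and Cry1 not without 7-day library 1. Nr1d1 fell by 0.83 ± 0.26 between 7 and 14 days (1 of 10, with 31.5%). In the ulna Cry1 fell by 0.37 ± 0.11 between 1 and 3 days (1 of 10, with 17.1% of all genes), a call that was lost without 1-day library 5. From 4 h to 1 day (11.1% of all genes), 3 to 5 days (4.68%) and 5 to 7 days (1.70%) the limma fit called 0 of 10, and 3 of the 30 differences had an unadjusted p below 0.05.

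The responses to the full and the stress fracture were compared as a difference of differences, at the 4 times that both injuries share, in a fit of both bones (21092 genes). The injuries differ in bone as well as in kind, so the 2 cannot be told apart. At 4 h 4 of 10 members differed (36.0% of all genes). Per1 rose by 1.83 ± 0.45 more after the full than after the stress fracture, and Cry1 by 0.43 ± 0.15 more, while the responses of Nr1d1 and Clock were lower, with differences of -0.91 ± 0.32 and -0.48 ± 0.15. The difference of Cry1 was not called with upper-quartile scaling (0.23), and that of Nr1d1 not without femur library 1 at 4 h (-0.78). For Dbp and Per3 the differences between the injuries at 4 h, -0.97 ± 0.57 and -0.54 ± 0.39, were not called. At 1 day the response of Arntl was lower after the full fracture, with a difference of -1.20 ± 0.41 (1 of 10, with 27.2% of all genes), which was not called without 1-day ulna library 2. Nr1d1 was the member that differed at 3 days, by -1.40 ± 0.32 (1 of 10, with 26.3%), and at 7 days, by -1.20 ± 0.33 (1 of 10, with 47.0%). For Clock the differences of -0.09 ± 0.15 at 3 days and 0.13 ± 0.15 at 7 days were not called.

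Intact ulnas and intact femurs held these genes at different levels. On a scale common to both bones, 6 members were higher and 2 lower in intact ulnas (18.0% and 21.7% of all genes). Of all genes called here 45.3% were higher in intact ulnas, against 79% with RPKM as deposited, which moved the median of all genes to 0.197, and 49.2% with upper-quartile scaling; the members' counts were 6 and 2 under each. Per2 averaged 9.81 ± 1.92 in intact ulnas and 3.70 ± 1.50 scaled RPKM in intact femurs (SD, n = 9 and 10), with no overlap and a difference of 1.47 ± 0.24. Per3 averaged 14.3 ± 3.05 in intact ulnas and 5.44 ± 2.42 in intact femurs, a difference of 1.46 ± 0.23, and Dbp 23.5 ± 6.92 in intact ulnas and 12.5 ± 10.5 in intact femurs, a difference of 1.19 ± 0.33. Per1, Tef and Nr1d2 were higher in intact ulnas by 0.83 ± 0.27, 0.80 ± 0.20 and 0.48 ± 0.18, the last of which was not called without intact femur 8 or 9. Arntl went the other way, at 4.25 ± 1.51 in intact ulnas and 10.2 ± 3.57 in intact femurs, a difference of -1.21 ± 0.23, and Clock was lower too, with a difference of -0.56 ± 0.09. Nr1d1 and Cry1 were not called (-0.04 ± 0.19 and -0.03 ± 0.09). Osteoblast markers were lower in intact ulnas for 7 of 7 genes, osteocyte markers for 4 of 5, and erythroid markers were higher for 6 of 8, and the part of these in the clock gene differences was not tested. The hour of collection of the 2 bones is not given.

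Within groups, 8 of the 10 members scattered more than the median gene. Around the group means the SD of Dbp was 0.69 log2 units in the femur and 0.80 in the ulna, higher than 84.2% and 86.8% of all genes tested, where the median gene had 0.28 and 0.25. Clock and Cry1 were the steadiest members, at 0.19 and 0.21 in the femur and 0.19 and 0.16 in the ulna. Over the 10 intact femurs Arntl rose with Clock (Pearson r = 0.914, Spearman rho = 0.915, permutation test, adjusted p = 0.0027 and 0.00675) and fell as Per3 rose (r = -0.902, rho = -0.879, permutation test, adjusted p = 0.00405 and 0.00779). It also fell as Dbp rose (r = -0.869, rho = -0.685, permutation test, adjusted p = 0.00882 and 0.0693). Per2 (r = -0.795, rho = -0.770), Nr1d1 (r = -0.736, rho = -0.673) and Tef (r = -0.705, rho = -0.673) passed the same threshold on r, and Per1, Cry1 and Nr1d2 did not. The p-values are adjusted over the 18 relations computed in both bones. The permutation treats intact limbs as interchangeable, though they came from mice of every time after injury. Limbs that share a time may be alike, and the p-values of both bones take no account of that.

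In the 9 intact ulnas Arntl fell as Per3 (r = -0.849, rho = -0.767, exact permutation test, adjusted p = 0.0149 and 0.055), Tef (r = -0.824, rho = -0.933, exact permutation test, adjusted p = 0.0149 and 0.00675) and Nr1d2 rose (r = -0.729, rho = -0.917, exact permutation test, adjusted p = 0.0427 and 0.00779), and it rose with Clock (r = 0.745, rho = 0.633, exact permutation test, adjusted p = 0.0427 and 0.105). Nr1d1, the repressor of Arntl, had r = 0.306 (rho = 0.283) in the ulna and did not pass the threshold there; the difference between the bones was not tested. Without the 2 libraries farthest from the median of Arntl the femur values were 0.850 for Clock, -0.873 for Per2, -0.697 for Per3 and -0.491 for Dbp, -0.450 for Nr1d1 and -0.224 for Tef. The relations with Dbp, Nr1d1 and Tef no longer passed 0.05, and that with Per3 kept a large r at an exact permutation p of 0.0539 over 8 libraries. Leaving out the extremes of Arntl narrows its range and cuts the number of libraries, so a lost relation does not show what it rested on. For Per1, which had r = -0.333 over all 10, the value without those 2 libraries was -0.866 (exact permutation p = 0.00189, not adjusted). Likewise in the ulna the values for Tef (-0.847) and Nr1d2 (-0.811) held, and those for Clock (0.359) and Per3 (-0.662) did not pass 0.05. For Per2 the value was -0.901 without those 2 libraries, against -0.648 with all 9.

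Over all 19 intact limbs, centred within each bone, the genes most like Dbp among 14999 were Naca (r = 0.825), Hlf (0.815), Bhlhe41 (0.805), 5930430L01Rik (0.799) and Zrsr1 (0.768), and the most opposite were Col6a2 (-0.884), Col6a3 (-0.846) and Sh3pxd2a (-0.838). Hlf is the third bZIP factor of the family of Dbp and Tef, and Bhlhe41 is a clock repressor. The genes most like Arntl were Col5a3 (0.895), Unc119b (0.845), Bag5 (0.843), Npas2 (0.819) and Sike1 (0.817), and the most opposite were Ankrd12 (-0.892), Ccne1 (-0.804) and Ctc1 (-0.801). Npas2 encodes a paralogue of Clock. Over all 67 libraries, the genes most like Dbp were 5930430L01Rik (0.790) and Hlf (0.735), both among the 5 of the intact limbs, followed by Fam35a (0.669), Sh3rf2 (0.664) and Plekha6 (0.659). The libraries compared share their depth and cell makeup across genes, and these values are a description with no test.

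Of 17 other clock genes, 15 were tested; Rorb and Fbxl21 did not pass the filter. At femur 4 h 8 were higher and 2 lower, with a median of 0.23 where all genes had -0.04 (28.3% called higher and 28.5% lower). The repressors Nfil3 (a D-box competitor of Dbp) and Bhlhe40 rose, by 2.21 ± 0.20 and 1.62 ± 0.16, and Hlf fell by 0.73 ± 0.23. The counts were 6 higher and 8 lower at 1 day (26.7% and 24.8% of all genes) and 4 and 7 at 3 days (28.8% and 28.0%). They were 5 and 4 at 7 days (32.5% and 33.6%) and 2 and 7 at 14 days (28.9% and 27.0%). Hlf fell at all 5 femur times. Cry2 fell at 1, 3 and 14 days, with differences of -0.58 ± 0.12, -0.79 ± 0.12 and -0.84 ± 0.12. Npas2 was higher at 7 days, by 1.05 ± 0.25.

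In the ulna 1 of the 15 was higher and 2 lower at 4 h (5.51% and 5.19% of all genes). Nfil3 was up by 1.21 ± 0.23, and Hlf and Bhlhe41 were lower, with differences of -0.97 ± 0.30 and -0.64 ± 0.20. Later counts were 1 and 0 at 1 day (8.83% and 3.98% of all genes) and 3 and 3 at 3 days (20.2% and 17.6%). They were 2 and 4 at 5 days (22.3% and 20.9%) and 1 and 4 at 7 days (18.5% and 16.0%). Npas2 was higher at 5 and 7 days, by 1.31 ± 0.49 and 1.75 ± 0.53, and Ciart, a small clock repressor, was lower at 7 days, with a difference of -0.95 ± 0.26. Of 6 clock output genes, 4, 4 and 5 were called lower at 3, 7 and 14 days in the femur (28.0%, 33.6% and 27.0% of all genes). In the ulna 4, 5 and 4 were called lower at 3, 5 and 7 days (17.6%, 20.9% and 16.0%). Usp2, a deubiquitinase under clock control, fell in both bones, with differences of -1.94 ± 0.20 at femur 14 days and -0.94 ± 0.19 at ulna 7 days. Tspan4 was higher from 1 to 14 days in the femur, by 1.34 ± 0.13 at 14 days, and from 1 to 5 days in the ulna, by 0.90 ± 0.16 at 5 days, and Wee1, a cell cycle kinase, was higher at 3 days in the femur by 0.36 ± 0.12.

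Glucocorticoid response genes rose at 4 h in both bones. In the femur 8 of 9 were higher and 0 lower (median 1.77), and in the ulna 7 of 9 and 0 (median 1.19). Of all genes at 4 h, 28.3% were called higher and 28.5% lower in the femur, and 5.51% and 5.19% in the ulna. Sgk1 rose by 2.04 ± 0.22 in the femur and 0.86 ± 0.21 in the ulna, and Fkbp5 by 1.46 ± 0.35 in the femur and 1.72 ± 0.32 in the ulna. At 14 days in the femur 1 of the 9 was higher and 5 lower (28.9% and 27.0% of all genes). Their median was -0.80, with Zbtb16 at -3.22 ± 0.35. Immediate early genes that respond to CREB rose too at 4 h, 9 of 9 in the femur (median 2.77) and 7 of 9 in the ulna (median 0.92), and Dusp1 is on both lists. Tsc22d3 and Klf9 are both clock outputs and glucocorticoid response genes here. Intact femur libraries 1 and 2 held the most Per1 of the intact femurs. They stood at 1.64 and 1.26 log2 units of the glucocorticoid list, where the intact femurs ranged from -0.66 to 1.64. On the CREB list they stood at 0.33 and 0.18, in a range of -0.38 to 0.33, so library 1 was the highest on both lists. What part these signals have in the level of Per1 was not tested.

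**Figure D5:**
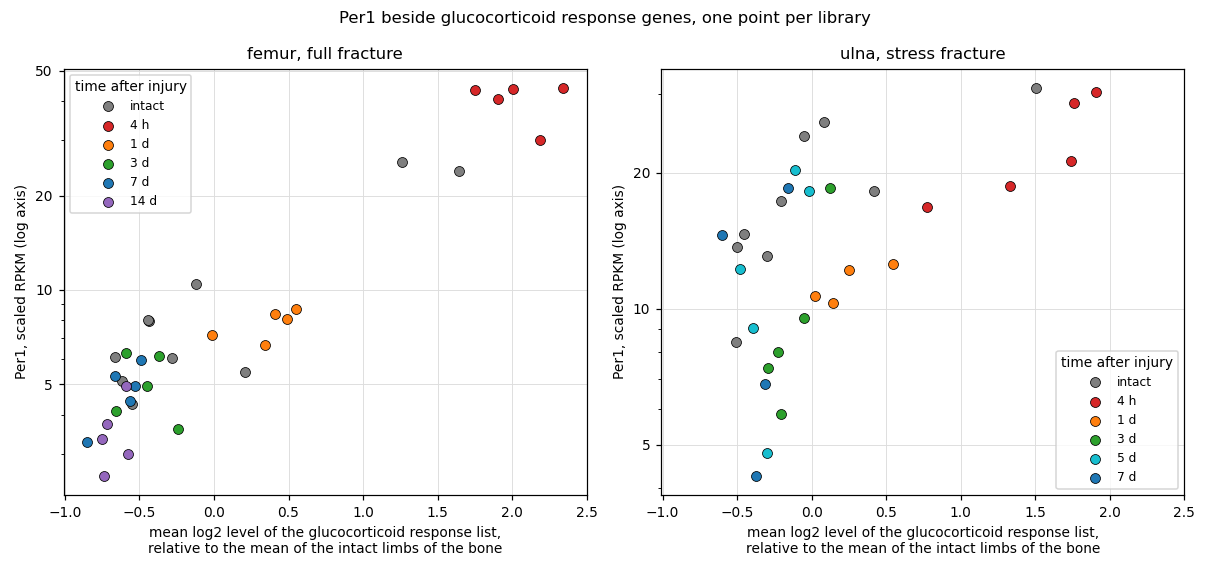
Per1 (vertical, scaled RPKM, log axis) against the mean log2 level of 9 glucocorticoid response genes relative to intact limbs of the bone (horizontal), in each femur library (left) and ulna library (right), coloured by time after injury. The 4 h femurs lie at 1.75 to 2.34 on the list and 30.02 to 44.1 for Per1, and 2 intact femurs lie between them and the rest.

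Markers of other cell types moved with the late falls. Over the femur times 26.7% to 32.5% of all genes were called higher and 24.8% to 33.6% lower. Over the ulna times these shares were 5.51% to 22.3% and 3.98% to 20.9%. Muscle markers (12) were lower for 2 at femur 4 h, 11 at 1 day and 12 at 3, 7 and 14 days, and their summed level was 3701 to 6146 scaled RPKM at 14 days, against 9922 to 31118 in intact femurs. Adipocyte markers (8) were lower for 4 at femur 4 h and for all 8 at each later time, with a summed level of 41.7 to 48.7 at 14 days, against 128 to 329 in intact femurs. Erythroid markers (8) were higher for 8 at femur 4 h and lower for 8 at 3, 7 and 14 days, at 17.1 to 90.1 at 14 days, against 239 to 472 in intact femurs. Chondrocyte markers (8) were higher for 5 at 3 days and for 8 at 7 and 14 days, macrophage markers (8) for 6, 8, 6 and 5 from 1 to 14 days, and neutrophil markers (9) were higher for 7 at 4 h and lower for 9 at 14 days. Osteoblast markers (7) were lower for 6 at 4 h and higher for 6 at 14 days, and osteocyte markers (5) were lower for 5 at 7 days. Of the muscle, adipocyte and erythroid markers Lep alone was listed at 0, in femur libraries of every group. In the ulna muscle markers were lower for 12, 11 and 5 at 3, 5 and 7 days and for 0 at 4 h and 1 day, and erythroid markers were lower for 8 at each of the 3 later times. At ulna 4 h the summed level of the muscle markers was 13542 to 28036, against 13816 to 21128 in intact ulnas. Of the 8 adipocyte markers 1 was higher and 1 lower at ulna 4 h, with a summed level of 135 to 589.7, against 254 to 699 in intact ulnas. The part of muscle, fat and blood cells in the clock gene differences was not tested.

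The authors' deposited table of their own comparisons gives values for these genes by another test, and the members it lists are in part others. At femur 4 h, 1, 3, 7 and 14 days it lists 2, 0, 1, 1 and 2 of the 10 as higher and 5, 4, 8, 7 and 7 as lower at an adjusted p below 0.05. It leaves out Nr1d2 at femur 4 h (DESeq2 adjusted p = 0.0995). It adds Tef at 1 day (0.0185), Arntl at 3 days (0.0331) and Nr1d2 at 7 days (0.0341), all lower. In the ulna at 4 h, 1, 3, 5 and 7 days the authors' deposited table lists 2, 1, 1, 1 and 1 as higher and 3, 3, 3, 1 and 1 as lower. Dbp and Per3 at ulna 4 h stand there at 3.08e-06 and 1.04e-09 (DESeq2 adjusted p). Tef at ulna 4 h is listed as lower (0.0028) and Arntl as higher (0.0181). At ulna 3 days Per2 is listed as lower (DESeq2 adjusted p = 0.00334). None of Tef and Arntl at 4 h and Per2 at 3 days was called here. The lower members of 1 day are Per1, Per2 and Per3, where none was called lower here. Per2, called here at ulna 5 and 7 days, is not listed at either (0.0518 and 0.125), and Tef is listed as lower at 7 days (0.0448). The share of all genes it lists below 0.05 ran from 62.9% to 76.0% in the femur and from 17.5% to 54.8% in the ulna.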

How the data were processed

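RNA from pulverised bone segments was depleted of ribosomal RNA and sequenced in single reads of 50 bases, per the labels' protocols, from samples with a RIN above 6.5. The authors used STAR 2.4.2a, Subread, featureCounts 1.4.6 and DESeq2 with mm10, per the submitters' processing notes; for the version of the gene annotation and the strand setting, nothing is stated. The deposited tables give RPKM per gene and library, per the file headers, and the authors' own comparisons as log2 fold changes with adjusted p-values. Of 70 samples in the labels, 67 had a column, and 3 ulna samples are not analysed here. Table columns name groups and not animals, so a library number is only a name, and p-values measure the spread between these libraries. The 27 names per bone that were turned into dates or repeated were left out (0.106% of femur and 0.105% of ulna RPKM).

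RPKM were scaled between libraries by the median of ratios (factors 0.835 to 1.14 in the femur, 0.905 to 1.11 in the ulna, 0.782 to 1.18 over the joint set of both bones). A gene entered a fit if 5 or more libraries held 0.5 scaled RPKM or more, and fits were made on log2(scaled RPKM + 0.1) with limma 3.58.1 (R 4.3.3; trend and robust variance, Benjamini-Hochberg over all genes tested, threshold 0.05), in one fit per bone and one of both bones. The fits were tested on simulated data first. Correlations used log2 values and scipy 1.17.1, with 100000 resamples for 10 libraries and exact pairings for 9. RPKM steps gave the assigned reads per library: 88.8 to 91.4% of values under 20 reads were whole to within 0.01. Of the members, Clock, Nr1d1, Per1, Per2 and Per3 were whole to within 0.05 in every library and the other 5 in 5.97 to 11.9% of libraries, so the reads given for Dbp are approximate. The members and the gene lists were chosen with earlier results of these data known. The text names all members and listed genes, plus the 5 genes most like and the 3 most unlike Dbp and Arntl over intact limbs, among genes with a mean of at least 1 scaled RPKM, and the 5 most like Dbp over all libraries. Alternatives were RPKM as deposited, upper-quartile scaling, a pseudocount of 1, no filter, limma without trend and robust variance, one fit of both bones, and each library left out; intact libraries 1 and 2 left out together was chosen after seeing the data.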

Additional observations from a re-analysis of the deposited data

Results flagged for a closer look

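A library was looked at again where it stood far from the rest of its group in a clock gene. Among 120 pairs of a gene and a group of 4 to 10 libraries this was so for 15. Chance gives about 1 in 20 for a single pair with normally distributed values. The genes share libraries and vary together, and the values were not logged, so the count of 15 cannot be set against that rate. Of these 15, 6 were library 1 of the ulnas at 5 days, with 2.69 scaled RPKM of Dbp, 11.01 of Tef, 6.203 of Cry1, 8.68 of Nr1d2, 16.8 of Arntl and 11.4 of Clock. Its nearest neighbours held 21.0 of Dbp and 4.56 of Arntl. A further 4 were library 5 of the ulnas at 1 day, with 37.4 of Dbp, 9.28 of Per2, 13.9 of Per3 and 27.4 of Nr1d2. Fractured femur library 4 at 4 h held 3.90 of Dbp and 30.02 of Per1, the one above and the other below the remaining 4. Single values were 11.3 of Tef in femur library 2 at 14 days, 8.79 of Clock in ulna library 3 at 3 days and 8.17 of Arntl in intact ulna library 2.

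The response to the full fracture and the response to the stress fracture differed in 7 of 40 comparisons by the limma test of that difference, where 36.0% (4 h), 27.2% (1 day), 26.3% (3 days) and 47.0% (7 days) of all genes differed. At 4 h these were Per1 (1.83 ± 0.45, adjusted p = 0.000982), Cry1 (0.43 ± 0.15, adjusted p = 0.0175), Nr1d1 (-0.91 ± 0.32, adjusted p = 0.0207) and Clock (-0.48 ± 0.15, adjusted p = 0.00807). The others were Arntl at 1 day (-1.20 ± 0.41, adjusted p = 0.0242) and Nr1d1 at 3 days (-1.40 ± 0.32, adjusted p = 0.000717) and 7 days (-1.20 ± 0.33, adjusted p = 0.00241). Since the list was drawn up with the contrasts known, these p-values describe the members and do not test them.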

How the results depend on the processing

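Counts of members called kept within 1.5 times in all femur contrasts with intact limbs, which ran from 7 to 9 at 4 h, 3 to 4 at 1 day, 6 to 9 at 3 days, 7 to 8 at 7 days and 8 to 9 at 14 days when single libraries were left out. With RPKM as deposited the count was 1 for femur 7 days minus 3 days (2 as reported), 2 for 14 days minus 7 days (1 as reported) and 4 for ulna 7 days (2 as reported). Without the filter on low values it was 1 for ulna 4 h (3 as reported). With upper-quartile scaling, and without intact libraries 1 and 2 of each bone, it was 2 for the full minus stress response at 1 day (1 as reported). Leaving out single libraries gave 1 to 3 for femur 7 days minus 3 days, 0 to 2 for full minus stress at 1 day, 0 to 1 for ulna 1 day, ulna 1 day minus 4 h and ulna 3 days minus 1 day, 0 to 3 for ulna 4 h and 1 to 4 for ulna 7 days. For the correlation of Arntl with Nr1d2 in intact femurs, RPKM as deposited gave -0.740. Without the 2 libraries farthest from the median, femur values were -0.491 for Dbp, -0.224 for Tef, -0.866 for Per1, -0.697 for Per3 and -0.450 for Nr1d1, and ulna values -0.901 for Per2, -0.662 for Per3, 0.359 for Clock and -0.429 for Per1, against 0.0760 for Per1 with all 9. The causes of these changes were not tested. No paired analysis was possible because the table columns carry no animal numbers, although the sample titles do, so the fit with the animal as a block was not run.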
